A study of Mus musculus with 6 samples.

Results

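Fibulins and elastic fibre proteins were followed in mouse podocytes of the conditionally immortalized line SVI, which were either stretched or left without stretch. The group held Fbln1, Fbln2, Fbln5, Efemp1, Efemp2, Eln, Emilin1, Emilin2, Mfap2 and Mfap5, and was chosen by gene symbol. Of these 10 genes, 9 had a probe set under their own single symbol in the platform annotation, out of 18193 genes tested, and the expression of Efemp2 was not analysed here. Where a gene had several probe sets, the one with the highest mean over all 6 arrays stood for it, so measured levels, but not the group labels, decided that choice. The group of genes itself was put together with earlier results of these arrays known, the rise of Fbln2 among them.

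Stretched cells had 3 arrays, from differentiated podocytes that underwent 3 days of cyclic stretch along both axes, with a frequency of 0.5 Hz and a largest linear strain of 5%. Unstretched cells had 3 arrays, from podocytes of the same line kept without stretch. All were differentiated at 38 °C in medium with 10% serum. The series names 3 independent batches without tying them to the arrays, so p-values reflect how much these arrays differ within a group, part of which may be technical. With 3 arrays a group, precision is limited.

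Elastic fibres give tissues their recoil. They are built from a core of crosslinked elastin laid down on a scaffold of fibrillin microfibrils, and fibulins, EMILINs and microfibril-associated proteins join the core to the scaffold and to the cell surface. Podocytes, the epithelial cells that cover the glomerular capillaries of the kidney, carry the load of the capillary wall and secrete part of its matrix.

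Stretch changed 2 of the 9 measured genes past the threshold, a Benjamini-Hochberg adjusted p under 0.05 over all 18193 genes in limma. Both were higher in stretched cells: Fbln2, by more than 4-fold, and Eln, by a small amount. The other 7 genes did not pass, and 0 were called lower in limma. At an unadjusted p under 0.05 the counts were 3 higher and 0 lower, where 14.4% of all genes were higher and 13.4% lower at that threshold. Across all genes 14.7% were called, with 7.98% called higher and 6.76% called lower. These were 1452 genes higher and 1229 lower, whereas a further quantile normalization of the arrays gave 1147 higher and 1546 lower. Centring the arrays on their medians instead gave 1669 higher and 1025 lower. The median log2 change was 0.12 over the 9 genes and -0.02 over all genes. Values below are log2 expression values of single probe sets, and changes are stretched minus unstretched on the log2 scale. Probe sets differ in how brightly they read. Levels of different genes are therefore compared only as brightness, as beside the median gene or in marker sums, and not as amounts of RNA.

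**Figure D1:**
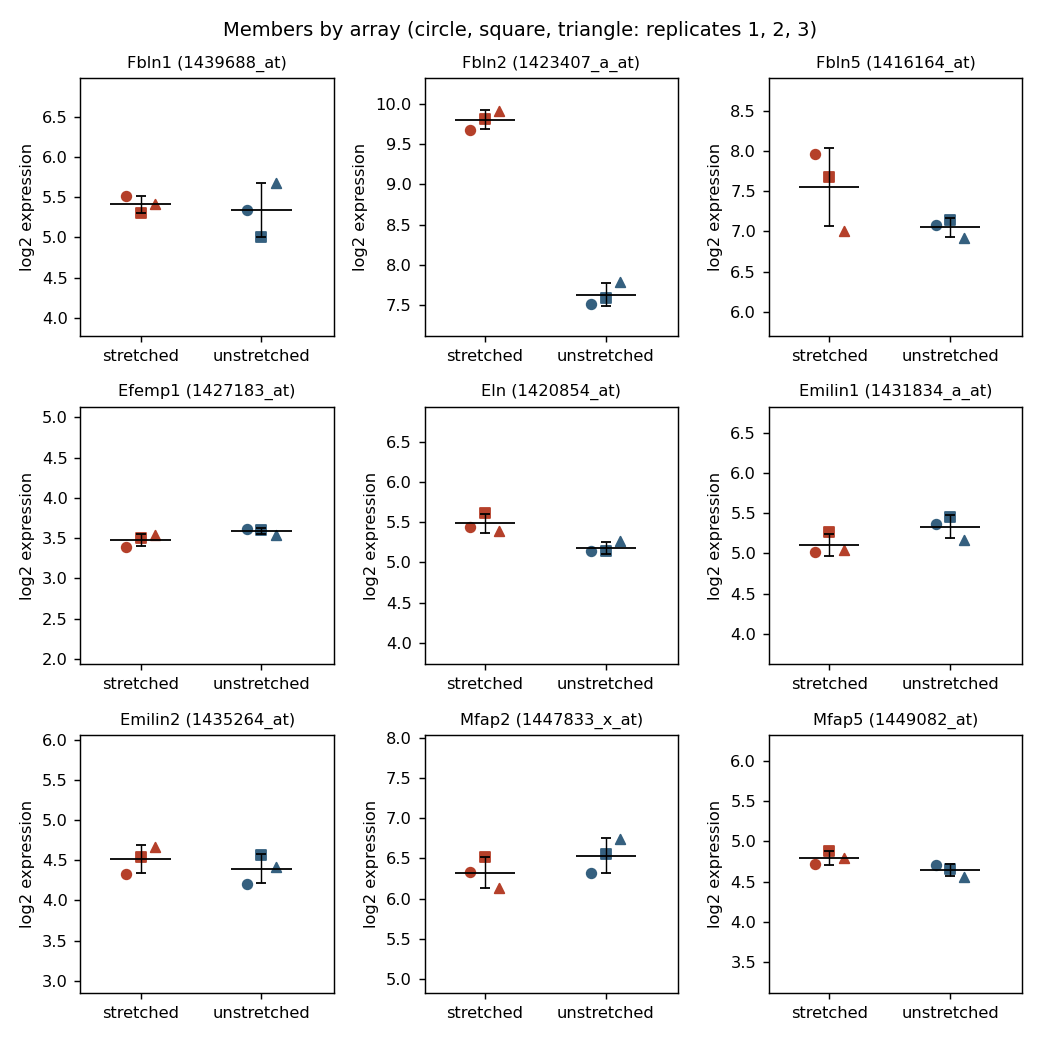
Log2 expression of the 9 measured genes on each array, with stretched cells at left (red) and unstretched cells at right (blue); each panel spans the same height, symbols mark replicate numbers, lines are means and bars are SDs (n = 3). Fbln2 sits at 9.68 to 9.91 in stretched and 7.51 to 7.79 in unstretched cells, while the other panels show much smaller steps or none.

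Fbln2 encodes fibulin 2, a secreted glycoprotein with calcium-binding EGF-like modules that binds fibronectin, nidogen and tropoelastin. Its log2 values were 9.68, 9.82 and 9.91 in stretched cells, against 7.51, 7.59 and 7.79 in unstretched cells. Every stretched array was higher than every unstretched array, with a gap far wider than the spread within either group. Fbln2 averaged 9.80 ± 0.12 in stretched and 7.63 ± 0.14 in unstretched cells (SD, n = 3 each). The limma estimate of its log2 change was 2.17 with an SE of 0.10 and a 95% interval of 1.95 to 2.39 (adjusted p = 1.41e-06). On the linear scale this is a 4.50-fold higher level (interval 3.85 to 5.26). Ordered by signed change, Fbln2 stood at rank 6 of the 18193 genes. The two-sided exact permutation test over the 6 arrays gave p = 0.1, the smallest that 3 arrays against 3 allow.

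These values came from a bright probe set with the suffix _a_at, given to probes shared by several transcripts of a gene. A second Fbln2 probe set was dim, with log2 values of 4.18, 3.91 and 4.14 in stretched cells and 4.04, 3.79 and 3.81 in unstretched cells. Its groups overlapped, and its log2 change of 0.20 (95% interval -0.04 to 0.44) missed the threshold over all probe sets (limma adjusted p = 0.297). With both probe sets averaged, the Fbln2 log2 change was 1.18 and still passed. The size of the Fbln2 rise therefore rests on 1 probe set, and no detection calls were used here to show whether the dim one read any transcript.

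Fbln2 and Fbln5 are the fibulins whose brighter probe set averaged above the median gene. The sequences before their starts are shown to place these transcripts in the genome and to give the letters around the start of the gene that moved most. They are the 250 bases before the RefSeq start, in assembly GRCm38.p6, read 5′ to 3′ along the gene's strand. Capitals mark a GC box (GGGCGG on either strand), a motif chosen after the sequences were seen.
Fbln2, chr6:91212514-91212763, plus strand: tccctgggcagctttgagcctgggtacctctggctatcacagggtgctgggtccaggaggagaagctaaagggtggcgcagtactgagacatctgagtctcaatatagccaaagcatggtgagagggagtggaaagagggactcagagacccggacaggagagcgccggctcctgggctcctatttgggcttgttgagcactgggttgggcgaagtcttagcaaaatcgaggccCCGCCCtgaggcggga
Fbln5, the outermost of its starts, chr12:101819120-101819369, minus strand: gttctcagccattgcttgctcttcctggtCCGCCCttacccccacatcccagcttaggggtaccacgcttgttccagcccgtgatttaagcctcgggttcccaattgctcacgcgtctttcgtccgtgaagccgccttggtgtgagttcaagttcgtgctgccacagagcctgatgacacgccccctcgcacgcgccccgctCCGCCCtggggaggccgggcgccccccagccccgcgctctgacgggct

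The Fbln2 window held 1 GC box, on the minus strand, beginning 16 bases before the start. The Fbln5 window shown held 2, and the other Fbln5 window held 0. The table covers 8 of the genes, Efemp2 included, with 14 windows, of which 9 windows, in 7 genes, held a GC box. Over all 32851 RefSeq windows of that length, 32.7% held at least 1, a share of windows and not of genes. In the 9 windows with a GC box, G and C made up 53.6% to 78.8% of the bases. The median over all windows was 52.4%, so these counts are a description only. Both strands of the windows were also searched for the AP-1 motif TGANTCA, for the TEAD motif GGAATG and for the SMAD motif CAGACA. The core promoter motif TATAAA and the SRF CArG box were searched for as well. None of these 5 was found in the Fbln2 window, which says only that those letters are not in these 250 bases. Among the 14 windows of these 8 genes, 5 held the SMAD letters, in 4 genes (Fbln1, Fbln5, Emilin1 and Mfap2), against 17.1% of all windows. The TEAD letters stood in 2 windows (Mfap2 and Emilin2; 12.6% of all) and the AP-1 letters in 1 (Efemp1; 6.75% of all). Windows of 1 gene can overlap each other.

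The genes on either side of Fbln2 in RefSeq gene order that were measured were Hdac11 and Wnt7a. Wnt7a, a secreted Wnt ligand, rose by 0.71 (SE 0.09, limma adjusted p = 6.39e-04), whereas the histone deacetylase gene Hdac11 had a log2 change of -0.15 (adjusted p = 0.332). Of the 18 such flanking genes of all 9 members, 3 were called, Wnt7a, Smchd1 beside Emilin2 and Apobec1 beside Mfap5, a share near the 14.7% of all genes.

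With predicted and clone-named transcripts left out, the 6-array profile of Fbln2 was most like those of Fst, Mcam and Tubb2b. Likeness was taken as the root mean square difference between log2 profiles centred on their own means. It was 0.10 for Fst, which encodes the activin antagonist follistatin, 0.16 for Mcam, a cell adhesion molecule, and 0.23 for Tubb2b, a beta-tubulin. Fst read 10.41, 10.37 and 10.51 in stretched cells, against 8.22, 8.14 and 8.24 in unstretched cells. The likeness was taken over 6 arrays in 2 groups and is a description only.

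Fbln5 encodes fibulin 5, which binds tropoelastin, the crosslinking enzyme Loxl1 and integrins and is needed for elastic fibre assembly in mice. Its log2 values were 7.96, 7.68 and 7.01 in stretched cells, against 7.08, 7.14 and 6.92 in unstretched cells. Stretched replicates 1 and 2 were above all unstretched arrays, but replicate 3 lay among them. The log2 change was 0.50 (SE 0.19, 95% interval 0.07 to 0.93), a fold of 1.42, and it did not pass (limma adjusted p = 0.118). Without stretched replicate 3 the Fbln5 change was 0.77 and passed (adjusted p = 0.00423), and without stretched replicate 1 it was 0.30 (adjusted p = 0.359). With both probe sets averaged it was 0.24. The SD within stretched cells was 0.49 for Fbln5, against 0.11 in unstretched cells. A second, dim Fbln5 probe set had a log2 change of -0.02 (95% interval -0.27 to 0.23).

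Fbln1 encodes fibulin 1, which binds fibronectin and acts as a cofactor of the protease Adamts1. Its values were 5.51, 5.30 and 5.41 in stretched and 5.34, 5.01 and 5.68 in unstretched cells, so that the unstretched arrays enclosed the stretched ones. The Fbln1 log2 change was 0.07 (95% interval -0.25 to 0.39, limma adjusted p = 0.809). The other Fbln1 probe sets had changes of -0.11 and -0.01, also with overlapping groups.

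Efemp1 encodes fibulin 3, a short fibulin that binds the protease inhibitor Timp3. Its only probe set was dim, at 3.39, 3.50 and 3.54 in stretched and 3.61, 3.60 and 3.54 in unstretched cells. The highest stretched and the lowest unstretched Efemp1 value differed only in the fourth decimal, and the log2 change of -0.11 did not pass (limma adjusted p = 0.447).

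Eln encodes elastin, the core protein of the fibre. Its log2 values were 5.44, 5.62 and 5.40 in stretched cells, against 5.14, 5.14 and 5.26 in unstretched cells. The groups did not overlap, but the gap between the lowest stretched and the highest unstretched array was small. The Eln log2 change was 0.31 (SE 0.09, 95% interval 0.10 to 0.51), a fold of 1.24, and its limma adjusted p of 0.0478 was just inside the threshold. A second Eln probe set read 4.69, 4.64 and 4.78 in stretched and 4.75, 4.41 and 4.50 in unstretched cells. Those groups overlapped, and the change of 0.15 did not pass (adjusted p = 0.432 over all probe sets). Eln no longer passed with any single stretched array left out (limma adjusted p = 0.0670 to 0.178), nor with unstretched replicate 1 or 2 left out (0.114 and 0.124). Averaging the probe sets of each gene also ended the Eln call (0.0703), and over all 6 arrays Eln averaged 5.33, below the median gene at 5.74.

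Emilin1 and Emilin2 encode glycoproteins of the boundary between elastin and microfibrils. Emilin1 is also known to hold back the maturation of TGF-beta precursor in mice. Emilin1 values were 5.02, 5.26 and 5.04 in stretched and 5.37, 5.46 and 5.17 in unstretched cells, with stretched replicate 2 inside the unstretched range. Its log2 change was -0.23 (95% interval -0.46 to 0.01, limma adjusted p = 0.190). Emilin2 values were 4.32, 4.54 and 4.66 in stretched and 4.20, 4.56 and 4.42 in unstretched cells, which overlap. Its change was 0.12 (95% interval -0.14 to 0.38, adjusted p = 0.572), and with single arrays left out it lay between 0.023 and 0.21 without passing. A dimmer Emilin1 probe set had a change of -0.03, and the average of both had -0.13.

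Mfap2 and Mfap5 encode small glycoproteins that bind fibrillins on microfibrils. The 2 Mfap2 probe sets went opposite ways. The one that stood for the gene, which carries the suffix _x_at for probes that can match other transcripts, read 6.33, 6.51 and 6.13 in stretched cells and 6.31, 6.55 and 6.74 in unstretched cells. Its log2 change was -0.21 (95% interval -0.50 to 0.07, limma adjusted p = 0.317). The other Mfap2 probe set read 6.12, 6.31 and 6.45 in stretched cells and 5.71, 5.85 and 6.27 in unstretched cells. Its log2 change was 0.35 (95% interval 0.03 to 0.67), which did not pass over all probe sets (adjusted p = 0.165). The means over all 6 arrays that decided between them were 6.43 and 6.12. The direction of Mfap2 thus depends on the probe set, and neither gave a call.

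Mfap5 values were 4.71, 4.88 and 4.79 in stretched and 4.71, 4.65 and 4.56 in unstretched cells. The groups only just failed to overlap, and the Mfap5 log2 change of 0.15 did not pass (95% interval -0.04 to 0.34, limma adjusted p = 0.290). In all, groups did not overlap in 4 of the 9 genes (Fbln2, Eln, Mfap5 and Efemp1), while 32.6% of all genes showed such a separation.

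**Figure D2:**
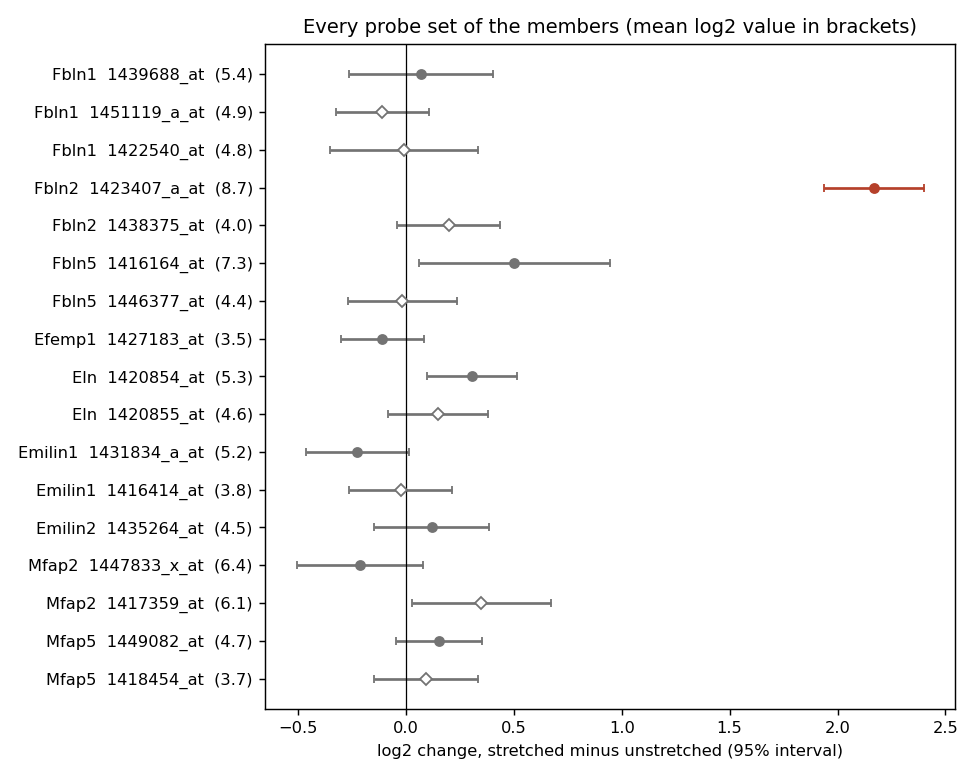
Log2 change, stretched minus unstretched, with 95% intervals for all 17 probe sets of the 9 genes (circles: the probe set that stands for the gene, open diamonds: the others; red: adjusted p under 0.05 over all probe sets; brackets: mean log2 value). Only the bright Fbln2 probe set is red, and the 2 Mfap2 probe sets lie on opposite sides of 0.

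Taken per probe set and adjusted over all 45037, 1 of the 17 probe sets of these genes was called, against 11.0% of all probe sets. Among the 8 probe sets that did not stand for a gene 0 were called in limma and 1, of Mfap2, had an unadjusted p under 0.05, as did 24.6% of all probe sets. Of those 8, 7 averaged below the median gene, as did 6 of the 9 that stood for a gene. For the 7 genes that did not pass, the 95% intervals together reached from a log2 change of -0.50 (Mfap2) to 0.93 (Fbln5, a fold of 1.91). The next highest upper bound was 0.39 (Fbln1, a fold of 1.31). Changes up to each gene's own bounds are not excluded.

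**Figure D3:**
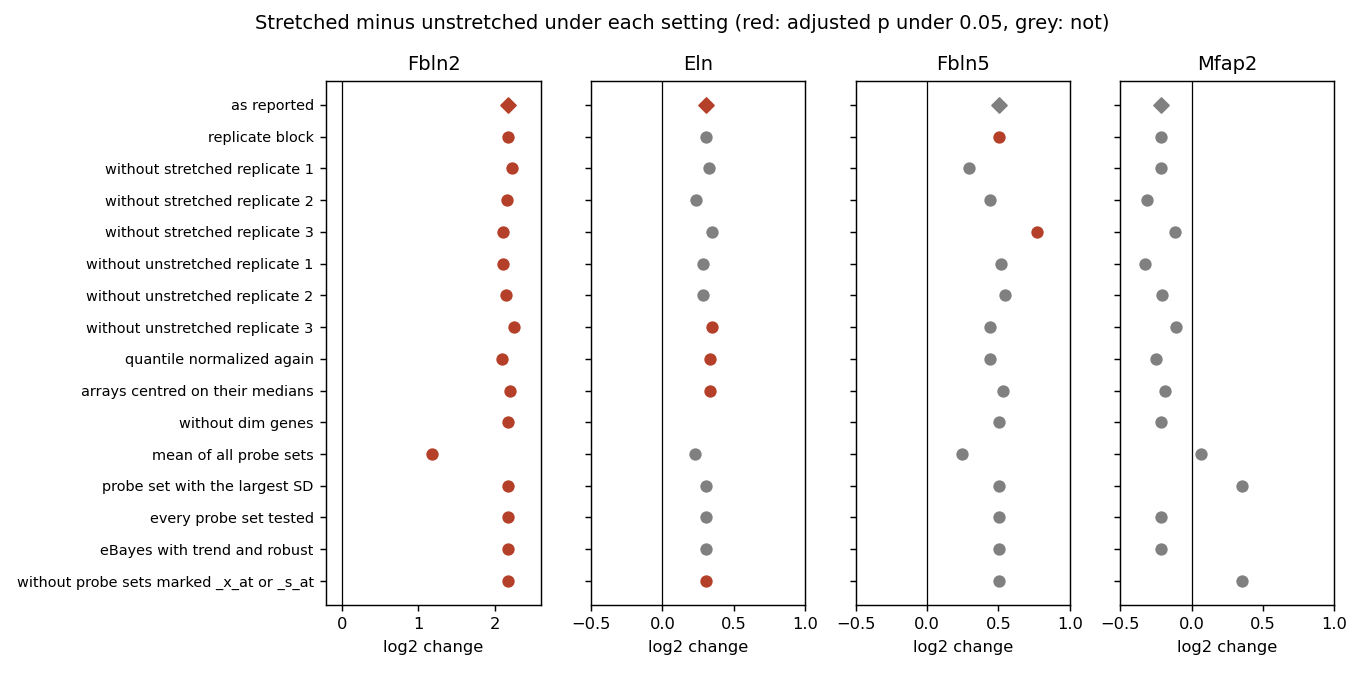
Log2 change, stretched minus unstretched, of Fbln2, Eln, Fbln5 and Mfap2 as reported (diamond) and under 15 other settings, 14 for Eln, which was not tested without dim genes (circles; red: adjusted p under 0.05, grey: not). Fbln2 is red throughout, Eln and Fbln5 change colour between settings, and Mfap2 crosses 0 with the choice of probe set.

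Other genes of elastic fibre assembly were taken from lists by role, of which 46 of 49 were measured. Of these, 9 rose and 8 fell, so that 37.0% were called, against 14.7% of all genes, with a median log2 change of -0.04, beside -0.02 over all genes. Fbn1, Loxl2 and Hmcn2 were not analysed here. Several of these lists follow genes already known from these arrays to move, so the counts describe them only.

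Among microfibril proteins 1 of 9 rose and 1 fell. Ltbp1, which binds latent TGF-beta, read 7.03, 7.23 and 7.20 in stretched and 4.37, 4.11 and 4.17 in unstretched cells, a log2 change of 2.94, or 1.03 with its probe sets averaged. The fibrillin gene Fbn2 fell by 0.51 (SE 0.14), while Ltbp4, which works with fibulin 5 on elastin, had a change of 0.16 and Mfap4 one of 0.17 without passing. The Fbn2 call ended without any single array other than unstretched replicate 2 (limma adjusted p = 0.0596 to 0.115).

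Of 5 genes of elastin crosslinking, 2 rose and 1 fell. Lysyl oxidase (Lox) read 9.39, 9.47 and 9.40 in stretched and 8.30, 8.10 and 8.46 in unstretched cells, a log2 change of 1.14 (SE 0.10, limma adjusted p = 7.93e-05). Loxl1, the partner of fibulin 5, rose by 0.52 (SE 0.08) and Loxl4 fell by 0.49 (SE 0.10). Loxl3 had a change of -0.05 and the copper pump gene Atp7a one of -0.03. Of 5 further fibulin and EMILIN relatives 2 fell, Fbln7 by 0.46 and the hemicentin gene Hmcn1 by 0.43. Both were dim, Fbln7 at 3.57 in stretched and 4.03 in unstretched cells and Hmcn1 at 3.85 and 4.29. All 5 of these relatives averaged below the median gene. Emilin3 had a change of -0.04 and Mmrn2 one of -0.10. With stretched replicate 1 or 3 left out Fbln7 did not pass (limma adjusted p = 0.0664 and 0.0580), nor did Hmcn1 with stretched replicate 3 left out (0.0550).

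Of 9 matrix partners, 4 rose and 1 fell. Fibronectin (Fn1), a ligand of fibulins 1 and 2, had a log2 change of 1.22, or 2.30 in the probe set with the largest SD, and Adamts1, the protease that fibulin 1 assists, one of 0.70, both past the threshold. The proteoglycan genes went both ways: biglycan (Bgn) rose by 0.59, whereas decorin (Dcn) fell by 1.50. With probe sets averaged Dcn changed by -0.68 and passed, and Bgn by 0.24 without passing (limma adjusted p = 0.0755). Timp3, which fibulin 3 binds, rose by 0.36. Versican (Vcan) and perlecan (Hspg2) had changes of -0.09 and 0.10. With stretched replicate 1 left out Bgn did not pass (limma adjusted p = 0.0511). Timp3 did not pass with stretched replicate 1 or 2 (0.145 and 0.0826) or unstretched replicate 1 or 3 (0.0813 and 0.0909) left out, nor after a further quantile normalization (0.0765). Adjusted over all probe sets, the Timp3 probe set that stands for the gene missed the threshold (0.0507), whereas its 3 others were called higher. With probe sets averaged Timp3 changed by 0.39 and passed (limma adjusted p = 0.00948).

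Of 10 receptor genes 2 rose and 2 fell. The integrin subunits Itgav and Itga5 rose by 0.35 and 0.38, and Itgb1 and Itgb3 had changes of 0.12 and -0.31 that did not pass. In the Itgb1 probe set with the largest SD the change was 0.37 and passed (limma adjusted p = 0.0279). Neu1 and Ctsa, lysosomal enzymes that are also part of the elastin receptor complex in humans, fell by 0.55 and 0.52. Glb1, in the same list, had a change of 0.05 that did not pass (limma adjusted p = 0.745). With probe sets averaged Ctsa changed by -0.29 and still passed (limma adjusted p = 0.0338). The Itgav call ended without any single array other than unstretched replicate 3 (limma adjusted p = 0.0680 to 0.132), and with probe sets averaged (a change of 0.20, adjusted p = 0.135). Itga5 did not pass with stretched replicate 1 or 2 (0.0901 and 0.0855) or unstretched replicate 2 (0.0742) left out, and its change was 0.06 with all probe sets averaged. Of 8 elastin-degrading proteases 1, the gelatinase gene Mmp2, fell, by 0.50 (SE 0.08). The macrophage elastase gene Mmp12 had a change of -0.38 and cathepsin L (Ctsl) one of -0.13.

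**Figure D4:**
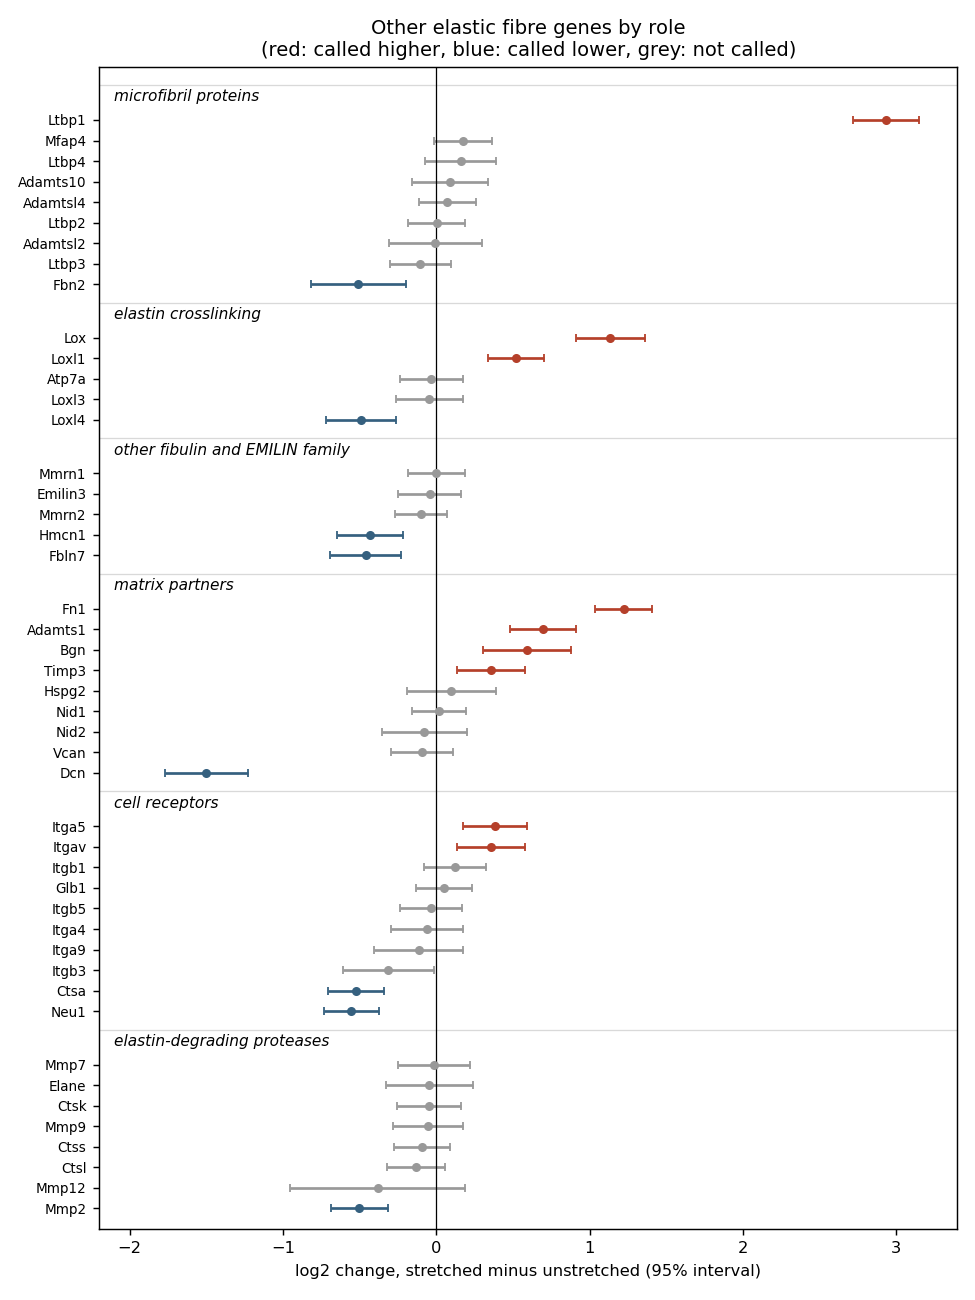
Log2 change, stretched minus unstretched, with 95% intervals for the 46 other elastic fibre genes, grouped by role (red: called higher, blue: called lower, grey: not called). Ltbp1, Fn1 and Lox lie furthest to the right and Dcn furthest to the left.

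The arrays had equal means (5.70). Their medians were 4.923 to 4.957 in stretched and 4.961 to 4.982 in unstretched cells, with SDs over probe sets of 2.08 to 2.10 and 2.03 to 2.06. As a measure of RNA quality, the beta-actin control read higher at its 3′ than at its 5′ end by a log2 difference of 1.30 ± 0.05 in stretched and 1.57 ± 0.03 in unstretched cells (SD, n = 3 each; two-sided exact permutation p = 0.1). The beta-actin groups did not overlap, and that p is the smallest that 3 arrays against 3 allow. For the Gapdh control the difference between the ends was 0.16 ± 0.10 in stretched and 0.25 ± 0.07 in unstretched cells, with overlapping groups (two-sided exact permutation p = 0.4). Of 7 podocyte markers measured 1, Synpo, passed, lower in stretched cells, while the list's summed linear level was 2086 to 2201 in stretched and 1836 to 2100 in unstretched cells. The brightest markers weigh most in such a sum, here Cd2ap at 10.53 in stretched and 10.27 in unstretched cells. The list's mean log2 level overlapped, at 6.57 to 6.67 in stretched and 6.58 to 6.77 in unstretched cells. Cd2ap had a change of 0.26 and Wt1 one of 0.25, neither past the threshold. Podxl, Ptpro, Nphs1 and Tcf21 had changes of -0.22, -0.13, -0.10 and -0.09 that did not pass either. The median log2 change of the podocyte list was -0.10. The nephrin gene Nphs1, which defines the cell type, was dim at 4.91 in stretched and 5.01 in unstretched cells. Of 8 smooth muscle markers 2 rose, Cnn1 and Tagln, and the list's summed linear level was 18297 to 19015 in stretched and 14890 to 15236 in unstretched cells, while its defining marker Myh11 was dim at 4.77 in stretched and 4.78 in unstretched cells. Of 10 fibroblast and mesangial markers 1 rose, Pdgfrb, and 1 fell, Dcn, while Col1a1 and Col3a1 were dim. The list's sums were 749 to 823 in stretched and 877 to 926 in unstretched cells, and its median log2 change was 0.0053. Pdgfrb and Dcn, its brightest markers, weigh most in these sums. Pdgfrb was at 8.82 in stretched and 8.42 in unstretched cells, and Dcn at 6.97 in stretched and 8.47 in unstretched cells. Of 7 macrophage markers 2 fell, Csf1r and Cd68 (sums of 440 to 498 in stretched and 592 to 694 in unstretched cells). Csf1r, the brightest, weighs most in these sums, at 8.38 in stretched and 8.88 in unstretched cells. Ptprc, Adgre1, Itgam, Tyrobp and Fcgr1 had changes of -0.28, -0.21, -0.03, -0.03 and 0.08 that did not pass. Of 8 parietal and tubule markers 2 rose, Cldn1 and Pax8 (sums of 1313 to 1486 in stretched and 1215 to 1327 in unstretched cells). For 8 endothelial markers the sums were 350 to 360 in stretched and 298 to 347 in unstretched cells, and 0 were called in limma. The brightest of them, Ehd3, was at 7.83 in stretched and 7.58 in unstretched cells. The mean log2 level of the endothelial list overlapped, at 4.49 to 4.60 in stretched and 4.50 to 4.63 in unstretched cells, with a median change of -0.06. The part of these differences in the results for fibulins and elastic fibre genes was not tested, and in such bulk RNA a change in the share of cells cannot be told apart from a change of RNA per cell.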

How the data were processed

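Total RNA of 6 samples was read on Affymetrix mouse arrays. The deposited table gives a log2 value for each probe set on each array, made with RMA per the submitters' processing notes. Which RMA version was used is not given in the sources used here, nor is the genome build. RMA equalises the overall level of arrays and compresses changes of dim probe sets, and without detection calls signal over background is unknown. Of 45101 probe sets, 64 controls were left out, and 34945 of the others had 1 gene symbol. Symbols were checked by gene ID against RefSeq (GRCm38), with 0 changed.

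The difference between stretched and unstretched arrays was fitted in R 4.3.3 with limma 3.58.1 (lmFit, eBayes), without covariates or a filter on dim genes, over 18193 genes, and again over 45037 probe sets. Values ± are SDs. The fit was tested on simulated data. Deviations from the group means had r of 0.02, 0.15 and 0.28 between same-numbered arrays, against -0.24 to 0.11 between unlike numbers. Because the series does not tie its batches to the arrays, they were not treated as pairs in the main fit. A shared batch of same-numbered arrays is not excluded. Alternatives were the replicate block, each array left out, other scalings, a filter, other probe set choices and another prior. Promoter windows came from RefSeq. Members and lists were chosen with earlier results of these data known. All members were named, and in each role every called gene and up to 2 others with the largest moderated statistic. Also named were Glb1, the 3 profiles most like Fbln2, predicted transcripts left out, and chosen neighbours.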

Additional observations from a re-analysis of the deposited data

How the results depend on the processing

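The Fbln2 change stayed positive and past the threshold under all 15 alternatives (1.18 to 2.25). The number of the 9 genes called was 1 or 2 with single arrays left out. It was 1 without dim genes (3 tested), with the mean of all probe sets, with the probe set of the largest SD, with every probe set tested and with trend and robust eBayes, since the Eln call ended there or Eln was not tested. With the replicate number as a block, 2 were again called, but Fbln5 (adjusted p = 0.0333) in place of Eln (0.0541). With the replicate block 19 of the other elastic fibre genes were called, beside 17, with Itgb3 (0.0458) and Mmp12 (0.0188) gained and 0 lost; the numbers of called genes were 11 to 15 with single arrays left out and 10 without dim genes (20 tested). Stretched replicates 2 and 3 correlated best with the unstretched array of their own number (r = 0.15 and 0.28). Stretched replicate 1 did so with unstretched replicate 2 (r = 0.06). Over all genes 2681 were called, 3102 with the replicate block, and 1661 or 1750 without stretched replicate 1 or 3. Of those 17 genes, 10 kept their call under every alternative that tested them (Ltbp1 and Loxl4 were not tested without dim genes), 7 lost it under at least 1, and 0 reversed (limma). Without probe sets marked _x_at or _s_at, chosen after seeing the data, the Itga5 change was 0.03. Signs that turned all belonged to genes not called. Fbln1 ran from -0.10 to 0.24 with single arrays left out and was -0.016 with averaged probe sets and -0.0076 with the probe set of the largest SD. Mfap2 was 0.068 with averaged probe sets and 0.35 with the probe set of the largest SD or without those marked _x_at or _s_at. With single arrays left out, Loxl3 ran from -0.096 to 0.037, Atp7a from -0.073 to 0.039, Emilin3 from -0.087 to 0.020 and Hspg2 from -0.063 to 0.20. Atp7a was 0.11 with averaged probe sets and 0.25 with the largest SD, and Mmrn2 was 0.12 without marked probe sets. Other causes were not tested, and dim probe sets limit what can be seen. Below the median gene were 6 of the 9 members and 26 of the 46 other elastic fibre genes.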
